A study of Homo sapiens with 6 samples.

Results

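Trimethylation of lysine 79 of histone H3 (H3K79me3) was compared between KDM2B-knockdown and control 293T cells. The comparison used 2 of the 6 libraries of the study, those labelled shKDM2B H3K79me3 and shCTL H3K79me3, and their peaks on chromosomes 1 to 22 and X. 293T cells descend from human embryonic kidney and express the large T antigen of SV40. The control line stably expressed a control hairpin RNA and the knockdown line a hairpin against KDM2B. Both libraries were made by chromatin immunoprecipitation and sequencing (ChIP-seq) with an Abcam H3K79me3 antibody of the same lot, per the labels. The labels do not say whether each line was a clone or a pool. The other libraries were H3K79me2 and input DNA of the same lines, and they are used below only beside H3K79me3.

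H3K79 lies on the surface of the nucleosome core and is methylated by DOT1L, which travels with the elongation machinery. The mark is known from the bodies of transcribed genes, with most signal in their early part. KDM2B is a JmjC-domain protein that binds CpG-rich DNA and belongs to a variant Polycomb repressive complex 1. The study asked whether it also acts on H3K79 methylation, so the question put to the H3K79me3 libraries was whether the mark was higher when KDM2B was reduced.

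Each line gave 1 H3K79me3 library, so each difference below is a difference between 2 libraries, with no replicate check and no test. Intervals are 95% intervals for counting error only. The control library held 17044011 tags after duplicate removal and the knockdown library 16389356, or 93.2% and 92.5% of all their tags. The libraries also differed in the fragment length that the peak caller estimated, 180 bp in control and 126 bp in knockdown, and in tag size, 46 and 50 bp. The part of these differences in the results was not tested. The narrowest peak called was 286 bp in control and 183 bp in knockdown. The peaks were not assigned to genes, and neither the KDM2B level nor markers of the cell line were analysed here, so the line and the knockdown rest on the labels.

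The knockdown library held more H3K79me3 tags inside its peaks and slightly fewer outside them. Tags are given per 1000000 filtered tags (RPM) and per kb of called peak. Tags and peak positions are the authors' own. The 5575 control peaks covered 17.3 Mb and held 9.75% of the tags, at 5.62 RPM per kb. The 7042 knockdown peaks covered 20.4 Mb and held 14.3% of the tags, at 7.0 RPM per kb. Outside the peaks, over the rest of the effective genome of 2.7 Gb, the density was 0.336 RPM per kb in control and 0.320 in knockdown. Peaks thus stood 16.7-fold above the remainder of the genome in control and 21.9-fold in knockdown. For H3K79me2 the order was the opposite, at 19.2-fold in control and 15.4-fold in knockdown. Tags inside and outside the peaks make up the whole library, so a larger share inside leaves a smaller one outside. The density outside and the fold are thus not separate from the share inside. Each was taken over the library's own peaks.

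Regions marked in both lines were nearly all denser in the knockdown library. Overlapping peaks of both lines, from 1 shared bp, formed 5070 regions with a peak in each line, and 195 of these lay on a peak of an input library. The control density in these regions ranged from 1.34 to 58.9 RPM per kb with a median of 3.46, and the knockdown density from 1.73 to 58.1 with a median of 5.32. The ranges overlapped almost completely, and the difference lay in the shift of most regions along them. The log2 ratio of RPM per kb, knockdown over control, had a median of 0.55 (1.46-fold), and it was above 0 in 4917 regions. At a 1.5-fold difference, 2282 regions (45.0%) were higher in knockdown and 8 (0.158%) were lower. At a 2-fold difference these counts were 378 (7.46%) and 1 (0.0197%). The 95% counting interval of the ratio lay above 0 in 4103 regions (80.9%) and below 0 in 38 (0.750%). Among 5418 H3K79me2 regions counted in the same way, 46 (0.849%) were at least 1.5-fold higher and 237 (4.37%) at least 1.5-fold lower, and the counting interval lay above 0 in 172 (3.17%) and below 0 in 1658 (30.6%). Summed over a region rather than per kb, the median RPM ratio was 1.52-fold for H3K79me3 and 0.9996-fold for H3K79me2, whose knockdown peaks were called over more bp in 72.7% of regions.

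**Figure D1:**
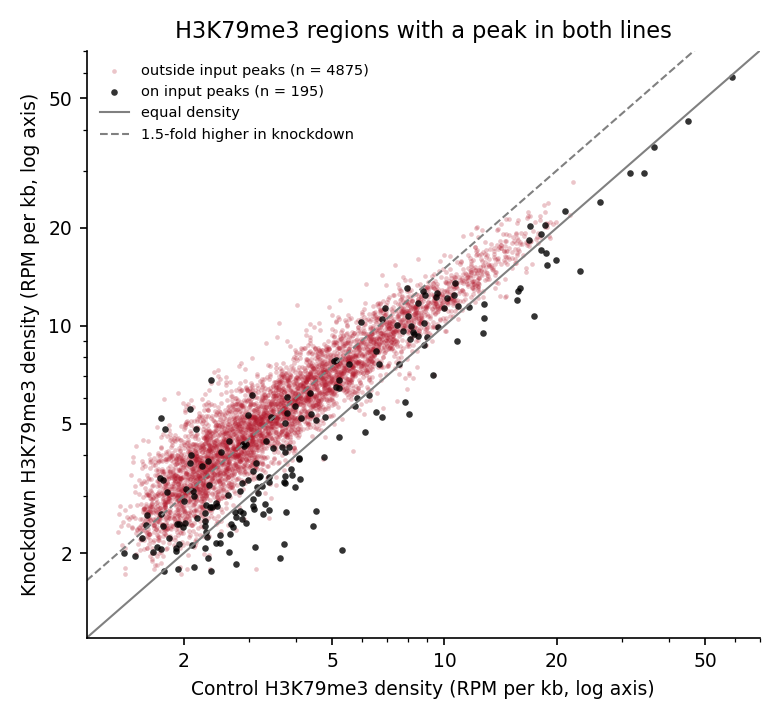
Density of H3K79me3 in control (x axis) and knockdown cells (y axis), in RPM per kb on log axes, for the 5070 regions with a peak in both lines, each point 1 region. Most of the 4875 regions outside input peaks lie above the line of equal density, and many of the 195 regions on input peaks lie near or below it.

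The size of this difference depended on the scaling of the libraries. Scaled to tags outside peaks, the median log2 ratio was 0.62, and 55.5% of regions were at least 1.5-fold higher. Scaled so that the median density of shared regions on input peaks was equal in both libraries, every log2 ratio fell by 0.14, the median was 0.40, and 27.0% were at least 1.5-fold higher. Under this last scaling 92.5% of the regions were still above 0. These scalings were chosen after the data were seen.

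The weaker and middling regions differed more than the densest ones. When the regions were ranked by their mean density in both lines and cut into 10 groups of 507, the median log2 ratio was 0.52 in the weakest group, 0.70 in group 3 and 0.28 in the densest group. In group 3 the median density was 2.39 RPM per kb in control and 3.84 in knockdown, a 1.62-fold difference. In the densest group it was 11.4 and 13.7 RPM per kb, a 1.21-fold difference. H3K79me2 also had its lowest ratio in its densest group, at -0.34, and its highest in its weakest group, at -0.01, or slightly above 0, at 0.01 and 0.04, when scaled to all tags or to the regions on input peaks. In both marks the ratio was thus lowest in the densest group. Outside input peaks the H3K79me3 medians of the weakest group, group 3 and the densest group were 0.55, 0.70 and 0.29. By mean called width, the H3K79me3 median was 0.41 in 273 regions under 1 kb, 0.64 in 1355 regions of 1 to 2 kb, 0.56 in 1931 of 2 to 4 kb, 0.49 in 1284 of 4 to 7 kb and 0.37 in 227 over 7 kb. The increase was smaller at both ends of the width range than in between. The density used for ranking enters the ratio as well, so the density groups are a description.

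**Figure D2:**
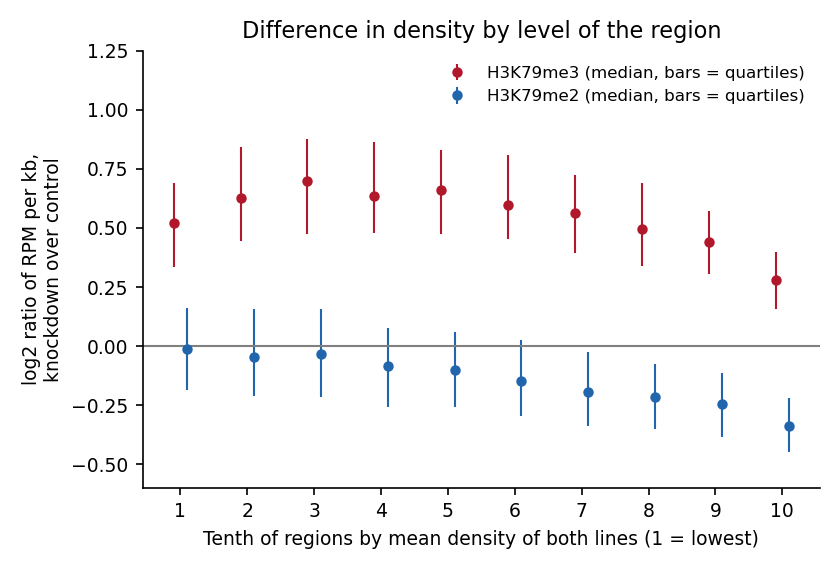
Log2 ratio of RPM per kb, knockdown over control (y axis), in 10 groups of regions ranked by the mean density of both lines (x axis, 1 is the lowest), with points at the median and bars from the lower to the upper quartile. H3K79me3 medians run from 0.70 in group 3 to 0.28 in group 10 and stay above 0, whereas H3K79me2 medians run from -0.01 to -0.34.

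Of the 5 single regions densest in control cells, 4 differed by less than 1.1-fold between the lines. Control density is the denominator of the ratio, so choosing regions by it favours small ratios. Among pairs of 1 control and 1 knockdown peak outside input peaks, the densest in control cells lay at chromosome 2, 232572116 to 232578726 (hg19), with 22.1 RPM per kb in control (95% interval 21.2 to 22.9) and 27.6 in knockdown cells (26.5 to 28.7). The next, at chromosome 20, 2445862 to 2451546, had 21.8 and 21.9 RPM per kb. The others lay at chromosome 19, 59055674 to 59059998, chromosome 17, 74553255 to 74560653, and chromosome 21, 30440378 to 30446426, with log2 ratios of 0.06 to 0.11. With counting errors of 0.04 to 0.05, the 95% counting interval excluded a ratio of 0 at the chromosome 2 and chromosome 21 regions among the 5. All 5 ratios were above 0 when scaled to filtered tags, 4 when scaled to all tags and 1 when scaled to the regions on input peaks.

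The highest densities of all lay in some of the regions on input peaks. The median of these regions was 3.63 RPM per kb in control and 4.01 in knockdown, against 3.46 and 5.36 in the other shared regions. The 5 densest in control cells were singled out after their values were seen, and this choice too favours low ratios. They were slightly lower in knockdown cells, except that 2 of them turned slightly higher when scaled to tags outside peaks. The densest, at chromosome 6, 58775359 to 58780247, had 58.9 RPM per kb in control and 58.1 in knockdown cells. Those at chromosome 10, 42596645 to 42600948, and chromosome 7, 61967029 to 61973595, had 44.9 and 36.5 RPM per kb in control against 42.5 and 35.5 in knockdown. The largest difference of the 5 was at chromosome 19, 27731776 to 27740585, from 34.2 to 29.6 RPM per kb, a log2 ratio of -0.21. Over all 195 regions on input peaks the median log2 ratio was 0.13, against 0.56 over the 4875 others. Of the 153 regions with a lower density in knockdown cells, 77 lay on input peaks.

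The largest increases reached nearly 3-fold. They were taken from the 3160 pairs outside input peaks with at least 100 tags in each library. At chromosome 15, 75866822 to 75871530, 148 tags over 3606 bp in control cells stood against 556 tags over 4709 bp in knockdown cells, or 2.41 (95% interval 2.04 to 2.83) and 7.20 RPM per kb (6.62 to 7.83). At chromosome 10, 126101195 to 126107528, the densities were 2.47 and 7.33 RPM per kb, and the called peak was shorter in knockdown cells, at 5697 against 6307 bp. At chromosome 7, 5458497 to 5463502, they were 4.02 and 11.6 RPM per kb. The remaining 2 lay at chromosome 17, 79365963 to 79367916, and chromosome 1, 230203172 to 230208478, at 2.84-fold and 2.71-fold. Of these 5 regions, 4 carried an H3K79me2 peak in control cells and 1 in knockdown cells, and of the 5 with the largest decreases 4 and 2 did. Over all 3160 pairs the shares were 83.7% and 75.3%. The control counts of both classes lay near their share and the knockdown counts lay below theirs. With 5 regions in each class, this difference was not tested.

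The largest decreases were smaller. The lowest log2 ratio among the same pairs was -0.46 (counting error 0.17), at chromosome 18, 18510810 to 18512626, with 5.68 RPM per kb in control and 4.12 in knockdown cells. At chromosome 5, 27472325 to 27476167, the density was 7.48 and 5.86 RPM per kb over nearly equal lengths of 3771 and 3809 bp. At chromosome 1, 168324100 to 168328409, it was 3.39 and 2.57 RPM per kb, and the peak was called over 4310 bp in control and 2730 bp in knockdown cells. In these 3 regions the summed tags were lower as well. In the other 2, at chromosome 3, 23954985 to 23961186, and chromosome 21, 45527057 to 45534036, the density was lower but the summed RPM higher, since the knockdown peak was called over 6093 against 2597 bp and over 6886 against 2665 bp.

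Called lengths were close in most pairs, and the knockdown peaks were longer mainly at weak sites. The median log2 ratio of called length over the 5070 regions was 0.055, with quartiles at -0.10 and 0.29. In density group 2 of 10 it was 0.28, with medians of 1339 bp in control and 1802 bp in knockdown, and in the densest group it was -0.01, with 5159 and 5200 bp. Over the 4993 regions with exactly 1 peak in each line, the knockdown peak reached beyond the control peak at both ends in 31.5% and at neither end in 22.2%. It reached beyond it at the lower-coordinate end alone in 23.3% and at the higher-coordinate end alone in 23.1%. The median extension was 25 bp at either end. Pairs that grew at both ends were weaker in control cells, at a median of 2.92 RPM per kb, than pairs that grew at neither, at 4.02, and their median log2 ratios of density were 0.60 and 0.51. H3K79me2 peaks reached beyond their control peak at both ends in 49.4% of 5315 pairs and at neither end in 8.88%. Their median log2 ratio of called length was 0.52 in the weakest H3K79me2 density group and 0.04 in the densest. Longer knockdown peaks at weak sites were thus seen in both marks. The caller's fragment estimate moved in opposite directions for the marks, from 148 to 210 bp for H3K79me2 and from 180 to 126 bp for H3K79me3, and its part in these lengths was not tested.

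The summits of H3K79me3 stayed near the same position in both lines. A summit is the base of highest tag pile-up in a peak as deposited. In the 4993 pairs the summits lay a median of 173 bp apart, with quartiles at 68 and 369 bp and a largest shift of 4144 bp. The shift was at most 100 bp in 34.4% of pairs, at most 500 bp in 83.0% and at most 1000 bp in 94.99%. The knockdown summit fell inside the control peak in 98.2% of pairs (95% interval 97.8 to 98.6%). It lay at a higher coordinate than the control summit in 2572 pairs (51.5%, 95% interval 50.1 to 52.9%) and at a lower one in 2410 (48.3%, 46.9 to 49.7%), a slight excess toward higher coordinates. The H3K79me2 pairs shifted by a median of 179 bp, and 50.4% of their knockdown summits (49.1 to 51.8%) lay at a higher coordinate.

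In wide peaks the summits lay on the same side of the midpoint in both lines. When each peak was divided into 5 equal parts, control summits fell in the parts from lower to higher coordinate in 8.36, 28.9, 26.5, 27.9 and 8.30% of peaks. Knockdown summits fell there in 11.5, 26.5, 24.5, 27.1 and 10.5%. In both lines the central part thus held fewer summits than the parts on either side of it. Both summits lay on the same side of their peak's midpoint in 55.4% of 271 pairs under 1 kb (95% interval 49.2 to 61.4%), in 82.0% of 1898 pairs of 2 to 4 kb and in 96.0% of 226 pairs over 7 kb (92.6 to 98.2%). The median shift grew far less with width, from 88 bp under 1 kb to 227.5 bp over 7 kb. A shift of a given size crosses the midpoint less readily in a longer peak. The rise of the share on the same side thus follows at least in part from length.

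**Figure D3:**
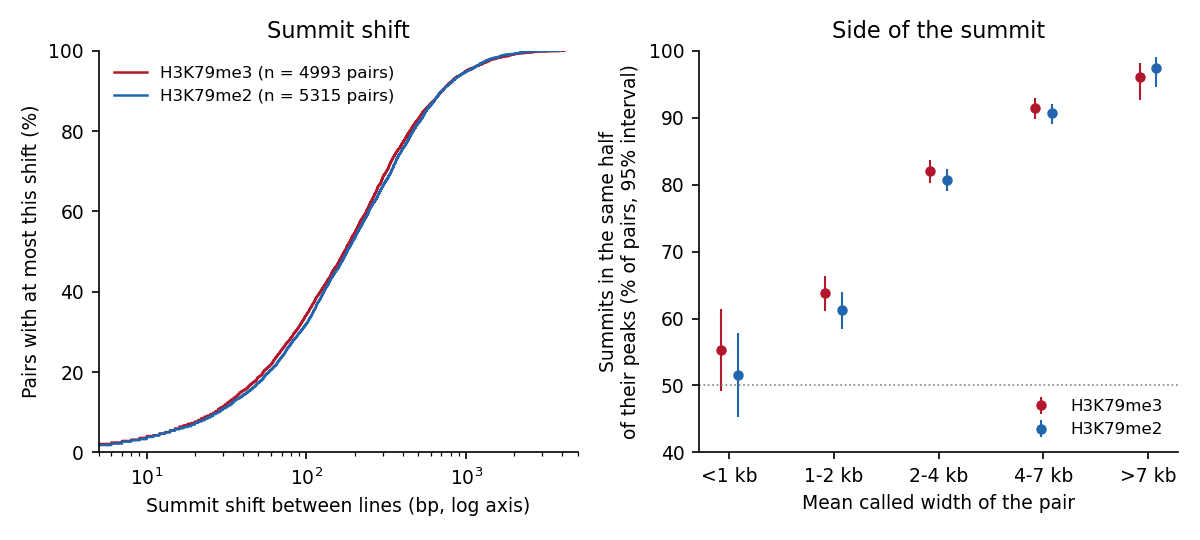
Left, share of pairs (y axis, percent) whose control and knockdown summits lie at most a given distance apart (x axis, bp, log axis); right, share of pairs with both summits on the same side of their peak's midpoint, by mean called width, with 95% intervals. The H3K79me3 and H3K79me2 curves nearly coincide, with medians of 173 and 179 bp, and the share on the same side rises from 55.4% to 96.0% for H3K79me3.

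A small group of 250 pairs (5.01%) had summits over 1 kb apart. Their control peaks were longer than those of the other pairs, with medians of 4482 against 2516 bp, and had lower scores, with medians of 119 against 195. The median log2 ratio of density was the same in both sets, 0.55. The summits lay on the same side of the midpoint in 45.2% of these pairs against 80.5% of the others. A shift of this size needs a long peak and more readily carries a summit across the midpoint. The length and the side thus follow at least in part from the choice of pairs. The largest shift, 4144 bp, was at chromosome 15, 85525086 to 85530293, where the control peak of 2594 bp had 98 tags and the knockdown peak of 5208 bp had 326. Shifts of 3851 and 3808 bp were found at chromosome 5, 68998117 to 69006019 and 69577666 to 69585681. These 2 regions were alike in tags and length, with 541 and 606 tags in control cells, 645 and 648 tags in knockdown cells and control peaks of 7903 and 7912 bp. Whether they share sequence was not checked.

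Peaks seldom split or merged between the lines. Of the 5070 regions, 54 (1.07%, 95% interval 0.801 to 1.39%) held more knockdown than control peaks, and 20 (0.394%, 0.241 to 0.609%) held more control than knockdown peaks. Both kinds were denser in knockdown cells, with median log2 ratios of 0.48 where knockdown peaks were more numerous and 0.68 where control peaks were. An example is chromosome 1, 52867669 to 52873198, where 1 control peak of 5282 bp with 574 tags faced 2 knockdown peaks with 672 tags in all. The reverse was seen at chromosome 3, 14163840 to 14170355, where 2 control peaks with 435 tags faced 1 knockdown peak of 6516 bp with 760 tags. For H3K79me2 the balance was reversed, with 5 regions of more knockdown peaks and 95 of more control peaks. In each mark, splits were thus more frequent in the library with the shorter fragment estimate, and the part of that estimate was not tested.

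Sites called only in knockdown cells were mostly short and thin, with medians of 1148.5 bp and 50 tags, while those called only in control cells had medians of 2517.5 bp and 112 tags. They numbered 1914 of the 7042 knockdown peaks (27.2%, 95% interval 26.1 to 28.2%) and 482 of the 5575 control peaks (8.65%, 7.92 to 9.41%). Their number by width showed where the imbalance lay. Under 1 kb, 812 sites belonged to knockdown alone and 153 to control alone. From 1 to 2 kb the counts were 595 and 67, a ratio of 8.88, and from 2 to 4 kb 308 and 76, a ratio of 4.05. From 4 to 7 kb they were 126 and 115, and over 7 kb 73 and 71, so long sites were lost and gained in nearly equal numbers. As a share of the control list, sites without a counterpart made up 27.6% under 1 kb, 3.98% from 2 to 4 kb, 8.66% from 4 to 7 kb and 25.1% over 7 kb. In the knockdown list the shares for these widths were 71.3, 13.6, 8.70 and 20.9%. The lists hold only what passed the caller's threshold, so tags can be present where no peak was called.

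Within the density quartiles of each own list, the gained sites were separated more sharply than the lost ones. In the lowest density quartile of the knockdown list, from 1.499 to 2.947 RPM per kb, 70.4% of 1761 peaks had no control peak. In the next quartile 26.8% had none, and in the upper quartiles 6.42 and 5.11%. In the control list the shares from the lowest to the highest quartile were 15.9, 6.31, 6.89 and 5.45%. The lowest control quartile ran from 1.263 to 2.320 RPM per kb, so the quartiles of the 2 lists cover unlike densities. The unmatched peaks themselves also enter the quartile limits, so the shares of the 2 lists are not like for like. Within the lowest quartile the knockdown share was 77.7% for peaks under 1 kb, 60.9% from 1 to 2 kb and 63.5% from 2 to 4 kb. In the highest quartile it was 1.87% from 1 to 2 kb, 2.11% from 2 to 4 kb, 3.77% from 4 to 7 kb and 19.1% over 7 kb. The control list had the same rise at its long dense end, with 4.07% from 4 to 7 kb and 21.3% over 7 kb. Of the 1914 peaks 60.7% had a caller score under 100, as did 73.0% of the 482, against 9.52% and 22.7% of the peaks with a counterpart in each list.

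**Figure D4:**
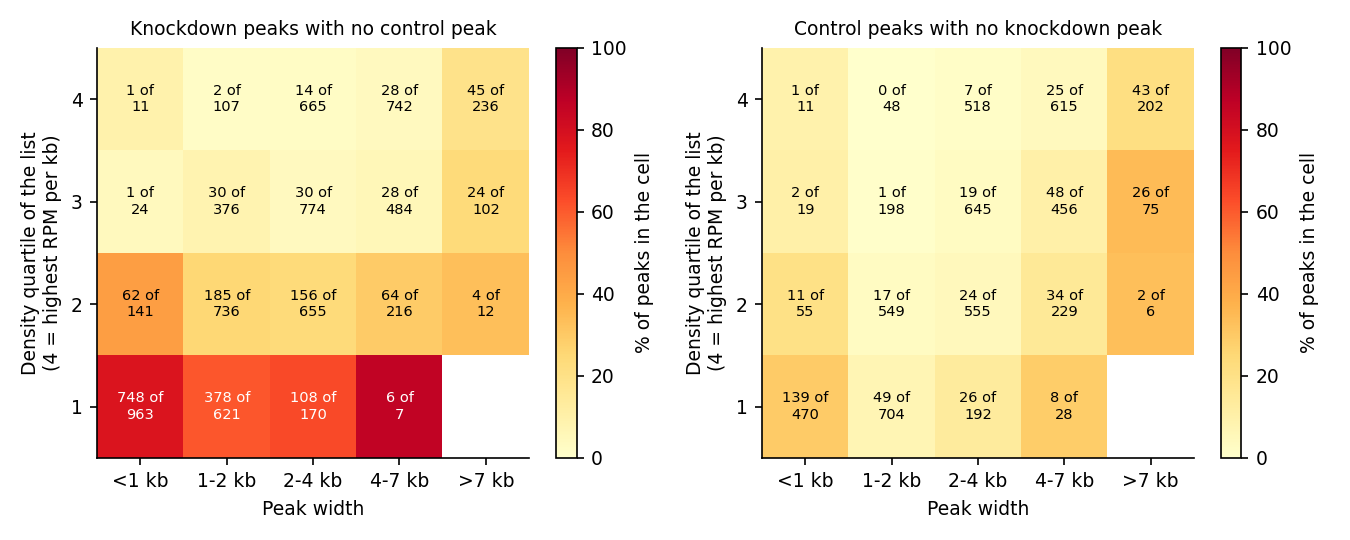
Share of H3K79me3 peaks with no peak in the other line (colour, percent), by peak width (x axis) and density quartile of the own list (y axis, 4 is the highest RPM per kb), for knockdown (left) and control peaks (right); the counts stand in each cell. The highest knockdown shares lie in the lowest quartile, such as 748 of 963 peaks under 1 kb, and both lists have raised shares over 7 kb.

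The split by width depended on which peaks were admitted. With scores of 100 or more, 624 sites of 1 to 2 kb belonged to knockdown alone and 20 to control alone, and from 4 to 7 kb the counts were 227 and 99. With lists cut to equal length by score the totals were 855 and 857, but the classes did not move together. Knockdown sites were more numerous from 1 to 2 kb, at 365 against 175, and from 2 to 4 kb, at 171 against 148. Control sites were more numerous under 1 kb, at 239 against 213, from 4 to 7 kb, at 179 against 82, and over 7 kb, at 116 against 24. Equal length forces the totals together and leaves the distribution over widths free.

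The highest-scoring sites of 1 line were as dense as many shared regions. In knockdown only, the first lay at chromosome 19, 8509684 to 8514591, with 2179 tags, 27.1 RPM per kb (95% interval 26.0 to 28.3) and a score of 1501, and the nearest control peak was 27185 bp away. The authors' fold enrichment of this peak over its own library's background was 3.41. The second, at chromosome 2, 86947338 to 86953095, had 15.4 RPM per kb and carried an H3K79me2 peak of 14.8 RPM per kb in control cells. The third, at chromosome 17, 74727977 to 74733636, had 18.4 RPM per kb and no H3K79me2 peak in either line. The densest shared region outside input peaks had 27.6 RPM per kb in knockdown cells, so by RPM per kb these 3 sites lay in the upper range of the mark. By the authors' fold enrichment, at 3.41, 3.64 and 4.59, they did not. The median fold was 5.92 in knockdown peaks without a control peak and 6.13 in those with one. The fourth and the fifth, at chromosome 22, 39898139 to 39902290, and chromosome 19, 2475941 to 2477683, had 10.3 and 5.29 RPM per kb.

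In control only, the 5 highest scores ran from 437 to 675, against 467 to 1501 in knockdown only. The first lay at chromosome 22, 30749132 to 30753219, with 632 tags and 9.07 RPM per kb (95% interval 8.38 to 9.81). The next lay at chromosome 2, 128279608 to 128284359, with 8.28 RPM per kb, and chromosome 10, 70480820 to 70484860, with 7.49. The other two lay at chromosome 7, 5013746 to 5016587, with 6.65 RPM per kb, and chromosome 12, 53845971 to 53852223, with 10.6. The nearest knockdown H3K79me3 peak was 8730 to 176077 bp away. None of these 5 control sites carried an H3K79me2 peak in either line, nor did 3 of the 5 knockdown sites above. Outside input peaks, an H3K79me2 peak was missing from both lines at 312 of 406 control sites (76.8%, 95% interval 72.4 to 80.9%) and at 491 of 1861 knockdown sites (26.4%, 24.4 to 28.4%). For the 3160 pairs outside input peaks with at least 100 tags in each library, this count was 447 (14.1%, 12.9 to 15.4%). Both kinds of site thus lacked an H3K79me2 call more often than these pairs. The pairs had a tag minimum and the sites had none, so the shares do not rest on the same choice of peaks. Most control sites without a knockdown counterpart had no H3K79me2 call, whereas most knockdown sites without a control counterpart had one.

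Peaks were more closely spaced in the knockdown list. The gap to the next peak on the chromosome had a median of 147823 bp in control and 112703 bp in knockdown. The knockdown list held 7042 peaks against 5575 on the same chromosomes, and more peaks mean shorter gaps by number alone. The gaps were not adjusted for the number of peaks. Gaps of at most 500 bp made up 1.30% in control (95% interval 1.02 to 1.63%) and 3.28% in knockdown (2.87 to 3.72%). Gaps of at most 10 kb made up 7.42 and 10.7%. The knockdown sites without a control peak were not appended to control peaks as a rule, since 5.59% of them lay within 1 kb of a control peak and 14.8% within 10 kb, and the median distance was 73643 bp. For control sites without a knockdown peak these values were 5.39%, 19.7% and 61578 bp. For H3K79me2, gaps of at most 500 bp made up 2.30% in control and 0.894% in knockdown. In each mark such gaps were thus more frequent in the library with the shorter fragment estimate, and the part of that estimate was not tested.

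Some sites found in 1 line only were neighbours in their own list. Of the 1914 knockdown sites, 962 (50.3%) followed or preceded another such site with no shared peak between them. These formed 275 runs of 2, 79 of 3, 27 of 4, 11 of 5 and 2 of 6 sites. A run of 6 spanned 583 kb at chromosome 14, 105282690 to 105865466, with no member on an input peak. The other run of 6 spanned 48.9 kb at chromosome 4, 49093277 to 49142192, and all 6 of its members lay on input peaks. Of the 482 control sites, 109 (22.6%) stood in runs, none longer than 3. A list with a larger share of unmatched sites holds more and longer runs of them, so the 2 shares are not on 1 scale. Unmatched sites made up 27.2% of the knockdown list and 8.65% of the control list. The shares that a random order of sites would give were not computed, so no clustering is claimed.

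The difference was spread over the 23 chromosomes. The median log2 ratio of density was lowest on chromosome X, at 0.46, and highest on chromosome 19, at 0.61, which is a narrow range beside the quartiles within a chromosome. The share of shared regions with a higher density in knockdown cells ran from 94.4% on chromosome 18 to 100% on chromosome 14. The share of knockdown peaks with no control peak ran from 22.5% on chromosome 11 to 33.1% on chromosome X, and the reverse share from 6.60% on chromosome 19 to 12.5% on chromosome 7. Chromosome X thus had the smallest gain in shared regions and the largest share of sites found in knockdown only. The median summit shift ran from 130 bp on chromosome 21 to 232 bp on chromosome 4. H3K79me2 medians were below 0 on all 23 chromosomes, from -0.19 to -0.09. The chromosomes share their libraries and do not replicate the comparison.

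**Figure D5:**
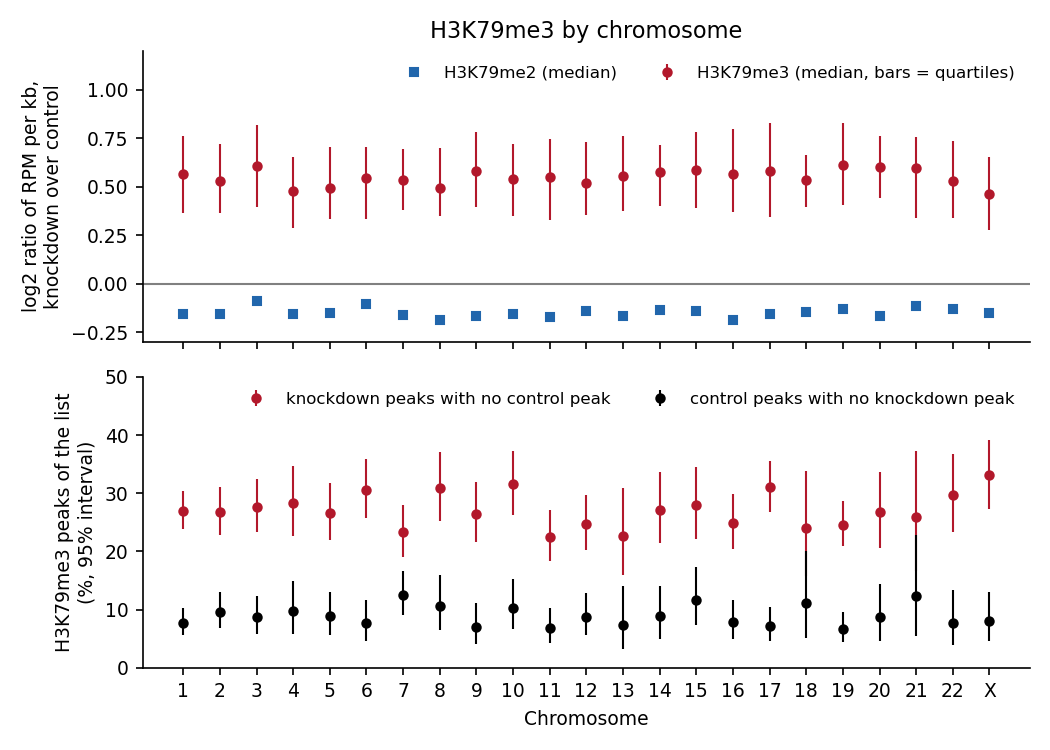
Top, log2 ratio of RPM per kb, knockdown over control, by chromosome (x axis), with H3K79me3 medians and quartile bars and H3K79me2 medians; bottom, share of H3K79me3 peaks with no peak in the other line (percent, 95% intervals). H3K79me3 medians lie between 0.46 and 0.61, and on each chromosome the knockdown share is above the control share.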

How the data were processed

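Peak lists of the H3K79me3 libraries were analysed, with those of H3K79me2 and input beside them. The submitters' processing notes name Bowtie2 and the build hg19 (GRCh37). Peaks were called in each library by itself with MACS 1.4.2, per the file headers, with no control file, a p cutoff of 1e-05, a limit of 1 tag per position and a background taken over 10000 bp around each peak. Each ChIP peak was thus set against its own library. Tags per peak were deposited as raw counts. Fold enrichment, also deposited, is a ratio to the same library's background. The deposited significance column was treated as a score, 10 times the negative log10 p of its heading. Positions are 1-based.

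Peaks on chromosomes 1 to 22 and X entered. Overlap, densities, summit shifts and gaps were computed in Python 3.11.15 (scipy 1.17.1, numpy 2.4.6, pandas 2.3.3), and the code was tested on simulated data. RPM is tags per 1000000 filtered tags. Shares carry exact Clopper-Pearson and densities exact Poisson 95% intervals. The counting error of a log2 ratio comes from the tags of both libraries. Width limits were 1, 2, 4 and 7 kb. Named regions followed a rule: 5 per class outside input peaks, by control density, by ratio with at least 100 tags in each library, by summit shift, by score in 1 line only, and by number of peaks spanned. The members, the rule and the lists were chosen with earlier results of these data known. No gene annotation was used here, so the gene lists were not applied.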

Additional observations from a re-analysis of the deposited data

Results flagged for a closer look

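The density of the marks per kb of called peak moved in opposite directions under the same contrast. With 1 library on each side, this difference was not tested. The median log2 ratio of RPM per kb, knockdown over control, was 0.55 for H3K79me3 and -0.15 for H3K79me2. In summed RPM the median ratio was 1.52-fold for H3K79me3 and 0.9996-fold for H3K79me2, so the opposite direction holds per kb of called peak and not for summed tags.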

How the results depend on the processing

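With 1 library per group no setting tests a difference. The median ratios of density and length stayed above 0 under these settings. With scores of 100 or more, 238 sites belonged to control alone, the median log2 ratio of density was 0.52 and of called length 0.037, the median summit shift was 160 bp, and 0.392% of regions held more knockdown and 0.0784% more control peaks. With lists cut to equal length by score, 855 sites belonged to knockdown alone and 857 to control alone, so the excess of knockdown sites was gone, the density ratio was 0.56, and 0.4045% of regions held more knockdown peaks. Without peaks on input peaks the length ratio was 0.064. With at least 50 tags the density and length ratios were 0.53 and 0.041, and 0.734% and 0.237% of regions held more knockdown and more control peaks. With peaks within 1 kb joined these shares were 0.0997% and 0.0399%, since joining removes splits. With an overlap of 50% of both peaks, 851 sites belonged to control alone and the length ratio was 0.044; regions with more peaks in 1 line were not counted there. Scaled to tags outside peaks, to all tags before duplicate removal or to the density of shared regions on input peaks, the density ratio was 0.62, 0.54 and 0.40, scalings chosen after the data were seen. Except where joining or equal numbers act by construction, the cause was not tested. No paired analysis was possible because each group holds 1 library. Depth limits the regions of few tags, whose counting intervals can include 0.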

Other observations

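H3K79me3 peaks on other sequences of the build, which entered no comparison, numbered 170 in control and 225 in knockdown cells, with 4.22 and 5.01 RPM per kb. At the 5 densest regions on input peaks, where H3K79me3 was 0.02 to 0.21 lower on the log2 scale in knockdown cells, the knockdown density of H3K79me2 exceeded the control density in 5 of 5, and in 4 of 5 when scaled to tags outside peaks. Under that scaling 2 of the 5 H3K79me3 ratios were above 0. The H3K79me2 density was 45.6 in control and 46.0 RPM per kb in knockdown at the chromosome 6 region, and 24.4 and 29.2 at the chromosome 19 region.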
